A study of Homo sapiens with 8 samples.

Results

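Aminoacyl-tRNA synthetases are the enzymes that join each amino acid to its tRNA. Their transcripts were followed in renal cell carcinoma (RCC) cell lines cultured with or without the branched-chain amino acids (BCAA) leucine, isoleucine and valine. The genes comprised 38 symbols chosen by name, of which 19 encode synthetases or synthetase subunits of the cytosol, 16 encode mitochondrial synthetases and 3 encode scaffold proteins of the multi-synthetase complex. Of these 38 genes, 36 had a row in both expression tables (18 cytosolic, 15 mitochondrial and 3 scaffold), out of 25431 genes listed for 769-P and 24190 for CAKI-1. VARS1 and VARS2, the valine enzymes, are not analysed here.

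Total RNA from 769-P and CAKI-1, a pair of established human RCC lines labelled as clear cell renal cell carcinoma cells, was sequenced in 8 libraries, with 2 per line and condition. For 16 hours, one group per line received leucine and isoleucine at 0.38 mM each and valine at 0.17 mM, and the other group received none of the 3 amino acids. The medium for BCAA depletion was built from an RPMI powder free of amino acids with dialyzed serum, whereas stock cultures of 769-P were kept in RPMI and those of CAKI-1 in MEM, so line and stock medium cannot be told apart. Each line stands for a single culture model, and the labels do not say whether the 2 libraries of a group came from separate cultures. The study describes its in vitro data in general as coming from independent experiments, and the replicate number it states for the RNA-seq is not the number of libraries per condition analysed here. The p-values measure the spread between these libraries, which may be technical. Between 39062721 and 64256834 reads per library lay on listed genes in 769-P and between 30979773 and 47054568 in CAKI-1. In 769-P both libraries with BCAA were deeper than both libraries without it. Of the renal markers examined, PAX8 reached 14547 to 23271 in 769-P and 8700 to 10739 in CAKI-1 (normalized value, defined below), whereas PTPRC, a leukocyte marker, reached at most 4.55 in 769-P. The renal markers were uneven. VIM and KRT8 were at least 84458 and 20202 in 769-P, and 64620 and 4953 in CAKI-1. By contrast, NDUFA4L2 reached at most 2.57 in 769-P and 216 in CAKI-1, and CDH16 at most 714 and 34.2. CUBN reached at most 267 and 28.3, EPCAM at most 28.1 and 286, and LRP2 at most 7.70 in 769-P. PDGFRB, which marks pericytes and fibroblasts, lay between 33.5 and 152 in 769-P and between 911 and 1607 in CAKI-1. Its values with BCAA exceeded those without it in either line, and its part in the results was not tested. CA9, and in CAKI-1 also PAX2, LRP2 and PTPRC, are not analysed here. In these bulk libraries, less RNA per cell and fewer cells that carry it cannot be told apart.

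A synthetase recognises an amino acid, activates it with ATP and attaches it to the matching tRNA, so that the ribosome receives the residue that the codon calls for. Cytosolic enzymes serve translation of nuclear-encoded transcripts, and a separate set, encoded in the nucleus and imported, serves the ribosomes of mitochondria. When an amino acid runs short, uncharged tRNA activates the kinase GCN2 (encoded by EIF2AK4), translation of the transcription factor ATF4 rises, and ATF4 binds C/EBP-ATF response elements near genes of amino acid synthesis, transport and tRNA charging. In animal cells several cytosolic enzymes travel together in the multi-synthetase complex, held by the scaffold proteins AIMP1, AIMP2 and EEF1E1.

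The core of the response element, TGATGNAA on either strand, was searched in RefSeq promoter windows on GRCh38.p14 that run from 250 bases before a transcript start to 50 bases after it. Of the 36 genes analysed, 33 had a window, and LARS1, YARS1 and AARS2 are named only. The core lay in the windows of 7 of 16 cytosolic genes (43.8%), 1 of 14 mitochondrial genes (7.14%) and 0 of 3 scaffold genes, beside 4.46% of 27305 genes with a window. The stricter word TGATGCAA, whose matches also count under TGATGNAA, was in 6 of the 16 cytosolic genes and in 1.08% of all genes. The stretches that hold the core are printed because this element is the one through which ATF4 is known to act. Each is read 5′ to 3′ on the strand that carries TGATGNAA, with the matched word in capitals. Positions count from the annotated start site as base 0 in the direction of transcription.
AARS1 (alanine enzyme, chr16:70289675-70289704, plus strand, positions -187 to -180): tctaacttggcTGATGCAActgcgagaaaa
CARS1 (cysteine enzyme, chr11:3057407-3057436, plus strand, positions -2 to 5): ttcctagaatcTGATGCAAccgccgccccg
GARS1 (glycine enzyme, chr7:30594834-30594863, minus strand, positions -33 to -26): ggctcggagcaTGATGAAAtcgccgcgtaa
IARS1 (isoleucine enzyme, chr9:92293692-92293721, plus strand, positions -13 to -6): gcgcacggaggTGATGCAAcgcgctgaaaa
MARS1 (methionine enzyme, chr12:57488053-57488082, minus strand, positions -4 to 3): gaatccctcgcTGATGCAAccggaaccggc
NARS1 (asparagine enzyme, chr18:57621804-57621833, minus strand, positions 14 to 21): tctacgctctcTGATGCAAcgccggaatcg
TARS1 (threonine enzyme, chr5:33440956-33440985, minus strand, positions 2 to 9): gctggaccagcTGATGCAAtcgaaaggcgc
YARS2 (mitochondrial tyrosine enzyme, chr12:32756076-32756105, minus strand, positions -197 to -190): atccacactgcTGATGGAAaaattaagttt
In 6 of the 8 stretches the 8-base word is the stricter TGATGCAA, whereas GARS1 and YARS2 carry another base at the free position.

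The tables hold a normalized value per gene, which is the number of reads divided by a size factor of the library and is not divided by gene length. Differences are given as log2 fold changes of value + 1, with BCAA minus without BCAA, so that a negative number means a lower level in the presence of BCAA. A gene was called at an adjusted p below 0.05 by limma, adjusted over all genes tested in that line.

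In 769-P cells, most cytosolic synthetase transcripts were lower in the presence of BCAA, by up to 4.09-fold for WARS1. The mitochondrial enzymes were called in both directions, with log2 fold changes between -0.34 and 0.46. Of 18 cytosolic genes, 11 were lower with BCAA, 5 were higher and 2 were not called, beside 18.2% of 22391 genes called lower and 20.3% called higher. Of 15 mitochondrial genes, 4 were lower, 5 were higher and 6 were not called. The median log2 fold change was -0.52 over the cytosolic genes and 0.07 over the mitochondrial genes, beside -0.02 over all genes tested. Every library with BCAA lay below every library without it for 12 of 18 cytosolic and 6 of 15 mitochondrial genes, beside 33.5% of all genes. With reads thinned to equal depth in every library, 11 cytosolic genes were called lower and the cytosolic median was -0.53. With any one of the 4 libraries left out, 8 to 10 cytosolic genes and no mitochondrial gene were called lower, and 0 or 1 cytosolic gene and no mitochondrial gene were called higher. In those fits the share of all genes called fell too, to between 2.94% and 6.5% lower and between 5.24% and 7.29% higher.

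The cytosolic enzymes took 0.470% of the reads in each of the libraries of 769-P with BCAA, and 0.745% and 0.739% in those without. The mitochondrial enzymes took 0.0925% and 0.0927% with BCAA and 0.0897% and 0.0901% without. In CAKI-1 the cytosolic share was 0.525% and 0.528% with BCAA and 0.586% and 0.579% without, so the groups were apart but closer than in 769-P. The mitochondrial share in CAKI-1 was 0.0699% and 0.0700% with BCAA and 0.0716% and 0.0680% without, and these groups overlapped.

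**Figure D1:**
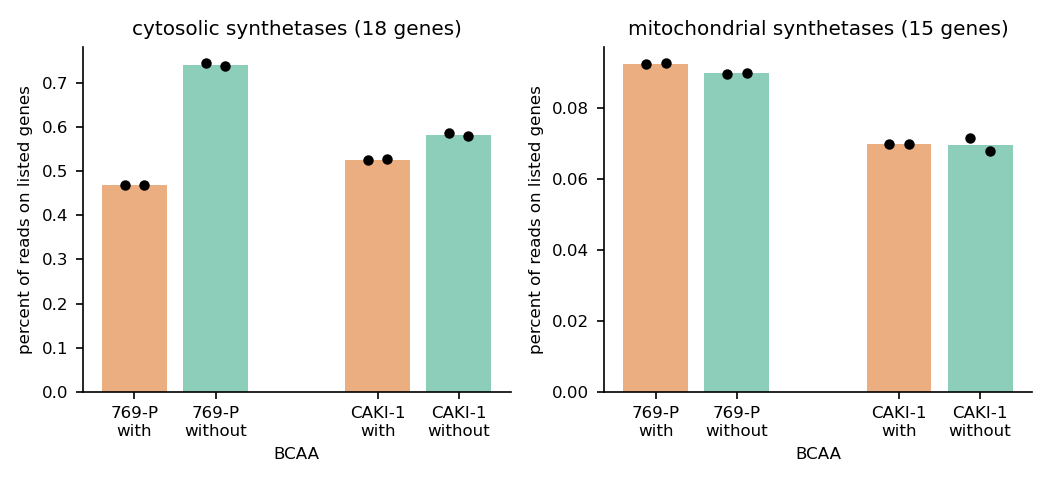
Share of the reads on listed genes that fell on the 18 cytosolic (left) and 15 mitochondrial (right) synthetase genes, in percent, by line and BCAA condition. Points are libraries, bars are means of 2 libraries and both axes start at 0; the cytosolic bar of 769-P without BCAA stands above the other cytosolic bars, and the mitochondrial bars of a line lie close together.

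The largest fall in 769-P was that of WARS1, the cytosolic tryptophan enzyme, which interferon also induces in many cells (chr14:100333788-100376805, minus strand, hg38). Its normalized value was 5389 and 5023 with BCAA against 20687 and 21890 without, and the groups were far apart. The log2 fold change was -2.03 (SE 0.05, limma adjusted p = 7.2e-11). Of its exon bases, 10.6% overlap other annotated genes.

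SARS1, the serine enzyme (chr1:109213918-109238169, plus strand), measured 9697 and 9601 with BCAA and 30014 and 29319 without. AARS1, the alanine enzyme, measured 14209 and 13929 with BCAA and 35142 and 35511 without. MARS1, the methionine enzyme of the complex, measured 9126 and 8914 against 20516 and 20226. In each of these 3 genes the replicate libraries lay close together and the conditions did not overlap. The log2 fold changes were -1.62 for SARS1, -1.33 for AARS1 and -1.18 for MARS1 (SE 0.04 for each, limma adjusted p at most 8.3e-10). Of the exon bases of MARS1, 13.3% overlap other annotated genes, among them DDIT3 on the opposite strand, and whether the counting used strand is not given in the sources used here.

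GARS1, the glycine enzyme, which supplies cytosol and mitochondria from a single gene, measured 15904 and 15751 with BCAA and 33414 and 33636 without (log2 fold change -1.08, SE 0.04, limma adjusted p = 8.8e-10). KARS1, the lysine enzyme and likewise shared between the compartments, measured 12051 and 11961 with BCAA and 10893 and 10833 without. Its small rise of 0.14 (SE 0.04, limma adjusted p = 0.013) was no longer called after median centering or quantile normalization. The log2 fold changes of this pair of genes had opposite signs in 769-P, but the call on KARS1 did not hold in every alternative.

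CARS1, the cysteine enzyme, fell by 1.12 on the log2 scale (SE 0.17, limma adjusted p = 0.00023), from values of 236 and 227 without BCAA to 116 and 97.5 with it. The libraries did not overlap, but CARS1 had by far the lowest level per length of the cytosolic genes, at 10.6 ± 1.3 normalized units per kb of exon in 769-P with BCAA (SD, n = 2). Whether similar sequences elsewhere, such as pseudogenes, took part of its reads was not tested, so its level is uncertain. Without any one of the 4 libraries, the call on CARS1 was lost, with log2 fold changes from -1.24 to -0.99.

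YARS1 (tyrosine), EPRS1 (the fused glutamate and proline enzyme) and NARS1 (asparagine) were also lower with BCAA in 769-P, with log2 fold changes of -0.78, -0.60 and -0.33, and the call on NARS1 was lost without either library that lacked BCAA (adjusted p = 0.064 and 0.065). TARS1, the threonine enzyme, had a log2 fold change of -0.10 (95% interval -0.18 to -0.01, limma adjusted p = 0.073) and FARSB, a subunit of the phenylalanine enzyme, one of 0.06 (-0.04 to 0.17, adjusted p = 0.35), and neither was called. TARS1 was called lower after median centering (-0.14, adjusted p = 0.0095), and its libraries with BCAA lay below those without it. FARSA, the partner subunit of FARSB, was higher, at 5354 and 5075 with BCAA against 3793 and 4104 without (0.40, SE 0.05, limma adjusted p = 9e-05). With any one 769-P library left out, the call on FARSA was lost, with log2 fold changes from 0.34 to 0.46. RARS1, the arginine enzyme, measured 11890 and 11813 with BCAA and 9090 and 9084 without (0.38, SE 0.04, limma adjusted p = 1.1e-05). HARS1, the histidine enzyme, was higher by 0.15, a call that did not remain after thinning, median centering or quantile normalization.

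**Figure D2:**
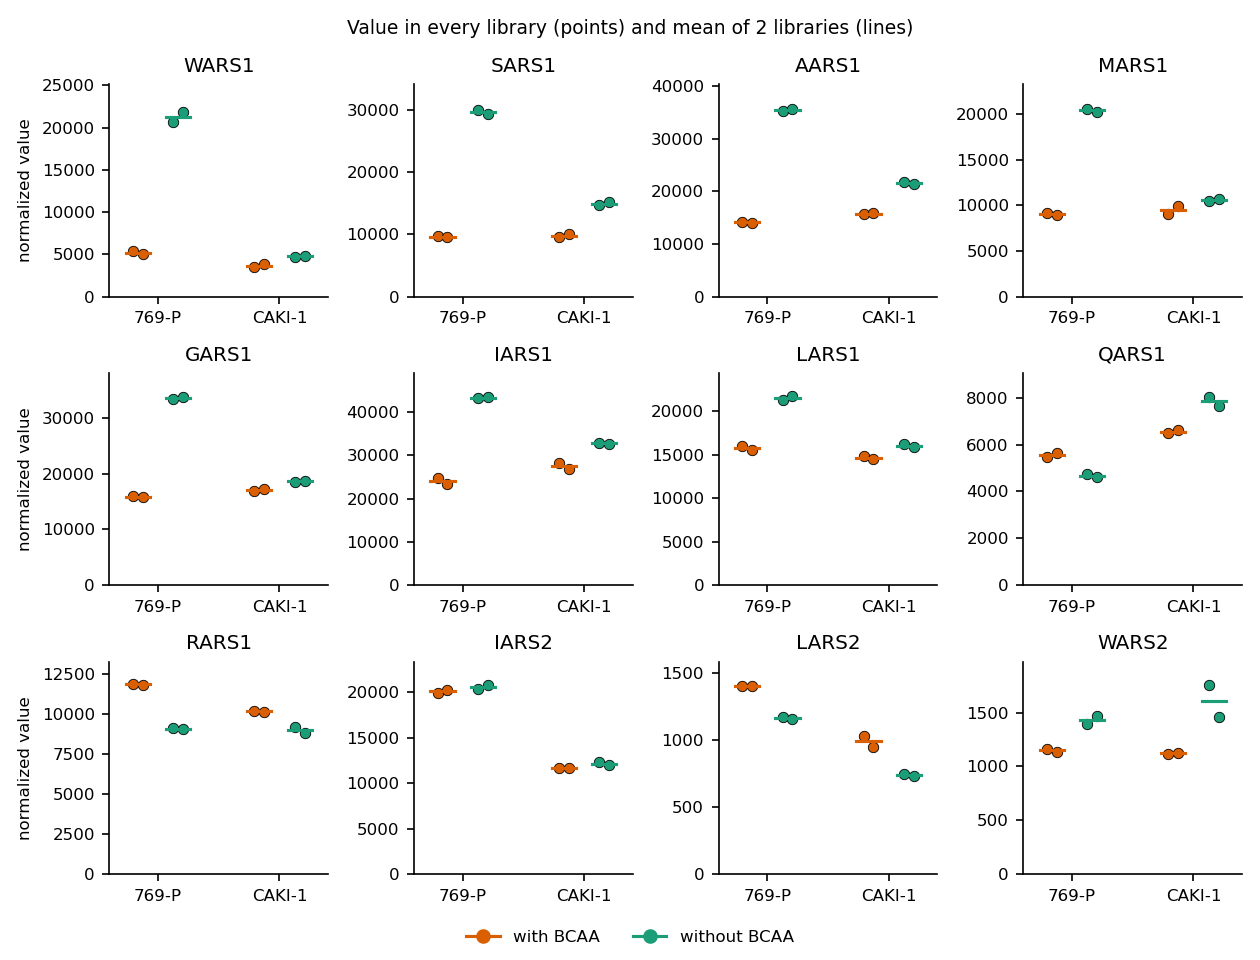
Normalized value (vertical axes from 0) of 12 synthetase genes in every library, with points for libraries and lines for the mean of 2 libraries. In 769-P the orange points (with BCAA) of WARS1, SARS1, AARS1, MARS1, GARS1, IARS1 and LARS1 lie below the green points (without BCAA), those of QARS1, RARS1 and LARS2 lie above, and in CAKI-1 QARS1 lies the other way.

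The amino acids that were supplied or left out are the substrates of LARS1, IARS1, LARS2 and IARS2. IARS1, the cytosolic isoleucine enzyme, measured 24678 and 23502 with BCAA and 43179 and 43522 without in 769-P, and 28312 and 26821 against 32803 and 32735 in CAKI-1. It was lower with BCAA in both lines, by -0.85 (SE 0.04, limma adjusted p = 9.7e-09) and -0.25 (SE 0.05, limma adjusted p = 0.0077), although the CAKI-1 call was lost after quantile normalization (adjusted p = 0.061).

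LARS1, the cytosolic leucine enzyme, measured 16006 and 15496 with BCAA and 21230 and 21785 without in 769-P. In CAKI-1 it measured 14807 and 14503 against 16212 and 15842. The libraries did not overlap in either line, and the log2 fold change was -0.45 (SE 0.04, limma adjusted p = 2.5e-06) in 769-P and -0.13 (95% interval -0.24 to -0.01, adjusted p = 0.12, not called) in CAKI-1. Without either library of 769-P that lacked BCAA, the 769-P call on LARS1 just missed the threshold (adjusted p = 0.051 and 0.052). In 769-P, 9 other cytosolic genes were called lower beside IARS1 and LARS1, and 6 of them fell further than IARS1.

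LARS2, the mitochondrial leucine enzyme, went the other way from LARS1. Its values were 1397 and 1403 with BCAA against 1166 and 1152 without in 769-P, and 1028 and 947 against 744 and 734 in CAKI-1. The groups did not overlap in either line, and LARS2 was higher with BCAA by 0.27 (SE 0.07, limma adjusted p = 0.0057) in 769-P and 0.42 (SE 0.09, adjusted p = 0.0054) in CAKI-1. IARS2, the mitochondrial isoleucine enzyme, measured 19945 and 20273 with BCAA and 20361 and 20758 without in 769-P, and 11707 and 11712 against 12295 and 11960 in CAKI-1. Its log2 fold change was -0.03 (95% interval -0.12 to 0.05) in 769-P and -0.05 (-0.17 to 0.07) in CAKI-1 and was not called in either line.

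Among the other mitochondrial enzymes of 769-P, AARS2 (alanine) was higher at 1646 and 1436 with BCAA against 1156 and 1079 without (0.46, SE 0.08, limma adjusted p = 0.00057). EARS2 (glutamate) measured 3068 and 2907 against 2422 and 2297 (0.34, SE 0.06, adjusted p = 0.00048). TARS2 and RARS2 were higher by 0.28 and 0.26, whereas PARS2, WARS2, NARS2 and CARS2 were lower, with log2 fold changes of -0.34, -0.32, -0.26 and -0.24. The call on PARS2 was lost without the filter on low values, after thinning and with DESeq2, and that on RARS2 after quantile normalization. Each of these 8 log2 fold changes was smaller in size than that of EPRS1, which ranked 9th among the cytosolic falls. FARS2, HARS2, IARS2, MARS2, SARS2 and YARS2 were not called, although YARS2 (0.20, adjusted p = 0.054) was called higher with edgeR (adjusted p = 0.022), a minimum mean value of 10, total scaling and the replicate block. SARS2 had values of 9.86, 11.1, 28.6 and 13.5 over the libraries of 769-P, and 57.0% of its exon bases overlap other annotated genes, so its level is uncertain.

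Of 12 amino acids with a gene of that name in both compartments, both genes were called in 769-P for 6. For 3 of these both were lower, for 1 both were higher and for 2 they went in opposite directions. Over all genes tested in 769-P, 18.2% were called lower and 20.3% higher. AARS1 fell by 1.33 on the log2 scale beside a rise of 0.46 for AARS2, LARS1 fell by 0.45 beside a rise of 0.27 for LARS2, and WARS1 fell by 2.03 beside a fall of 0.32 for WARS2. CARS1 and CARS2 fell by 1.12 and 0.24, and NARS1 and NARS2 fell by 0.33 and 0.26. For arginine the genes rose together, RARS1 by 0.38 and RARS2 by 0.26.

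In CAKI-1 cells fewer synthetase genes passed the test. Of 18 cytosolic genes, 5 were lower with BCAA (AARS1, IARS1, QARS1, SARS1 and WARS1), 2 were higher (HARS1 and RARS1) and 11 were not called, beside 9.05% of 21347 genes called lower and 10.8% called higher. EPRS1 (-0.17, adjusted p = 0.051) was called lower with edgeR, DESeq2, a minimum mean value of 10, median centering and the spread taken from all 8 libraries. Of 15 mitochondrial genes, WARS2 was lower, LARS2 and MARS2 were higher and 12 were not called. The median log2 fold change was -0.12 for the cytosolic and 0.05 for the mitochondrial genes, beside -0.01 over all genes. The mitochondrial median changed sign with edgeR, to -0.0057, and was 0.0061 with DESeq2 and 0.0030 after thinning. Every library with BCAA lay below every library without it for 11 of 18 cytosolic and 4 of 15 mitochondrial genes, beside 28.8% of all genes. With any one CAKI-1 library left out, no gene of the table passed limma's threshold, while 4084 to 5590 genes had an unadjusted p below 0.05.

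SARS1 showed the largest fall in CAKI-1, with values of 9558 and 10046 with BCAA against 14680 and 15228 without (-0.61, SE 0.06, limma adjusted p = 2.8e-05). AARS1 measured 15699 and 15818 against 21819 and 21392 (-0.46, SE 0.05, adjusted p = 0.00014). WARS1 measured 3511 and 3833 against 4744 and 4797 (-0.38, SE 0.06, adjusted p = 0.0015). The conditions did not overlap in any of these 3 genes.

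WARS2, the mitochondrial tryptophan enzyme, measured 1115 and 1127 with BCAA and 1759 and 1457 without in CAKI-1 (-0.51, SE 0.09, limma adjusted p = 0.0024). In 769-P it measured 1159 and 1136 against 1396 and 1469, so WARS2 was lower with BCAA in both lines. MARS2, the mitochondrial methionine enzyme, measured 727 and 612 with BCAA and 455 and 493 without in CAKI-1 (0.49, SE 0.11, adjusted p = 0.0089), a call that was lost after quantile normalization (adjusted p = 0.058). HARS1 measured 4509 and 4269 against 3768 and 3809 (0.21, SE 0.06, adjusted p = 0.028) and RARS1 10185 and 10128 against 9155 and 8790 (0.18, SE 0.05, adjusted p = 0.038), and the groups did not overlap in either gene. After quantile normalization or thinning neither call remained (adjusted p = 0.11 and 0.070 for HARS1, 0.098 and 0.062 for RARS1).

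Of the cytosolic genes called lower, 4 were shared between the lines (AARS1, IARS1, SARS1 and WARS1), out of 11 in 769-P and 5 in CAKI-1. HARS1 and RARS1 were called higher in both lines. The share of all genes called alike in both lines is not given here, so these overlaps have no baseline. QARS1, the glutamine enzyme of the complex (chr3:49095932-49105135, minus strand), was the gene whose calls went in opposite directions. It measured 5462 and 5617 with BCAA against 4727 and 4619 without in 769-P, and 6472 and 6623 against 8045 and 7646 in CAKI-1. The libraries did not overlap in either line, and the log2 fold change was 0.25 (SE 0.05, limma adjusted p = 0.0012) in 769-P and -0.26 (SE 0.06, adjusted p = 0.0073) in CAKI-1. With any one 769-P library left out, the 769-P call on QARS1 was lost, with log2 fold changes from 0.23 to 0.27.

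**Figure D3:**
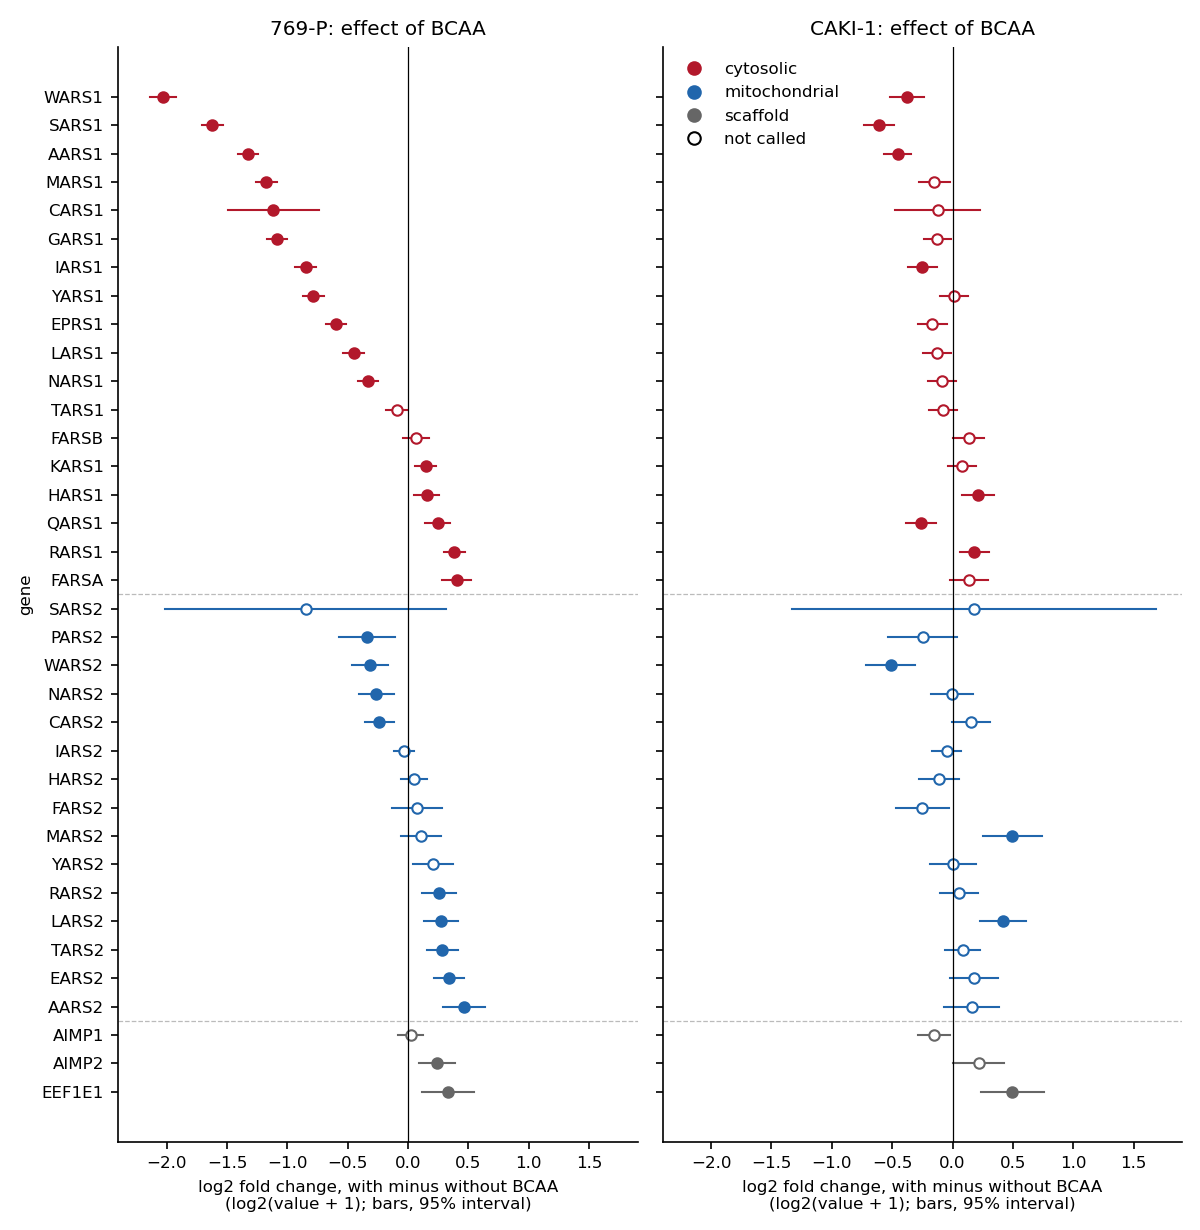
Log2 fold change of value + 1, with minus without BCAA, of the 36 genes in 769-P (left) and CAKI-1 (right), with the 95% interval from limma. Filled points were called at an adjusted p below 0.05 and colours mark the class; red cytosolic points reach -2.03 in 769-P and -0.61 in CAKI-1, while blue mitochondrial points called in either line lie between -0.51 and 0.49.

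The difference between the lines was tested with an interaction term, the effect in 769-P minus that in CAKI-1, over 19406 genes. It was called for 14 of the 36 genes. Of 18 cytosolic genes, 11 had an effect in 769-P below that in CAKI-1 and 2 had one above it, beside 10.1% and 10.9% of all genes, and of 15 mitochondrial genes only CARS2 was called. The difference was -1.65 (SE 0.08, limma adjusted p = 2.1e-08) for WARS1, -1.02 (SE 0.07, adjusted p = 4.3e-07) for MARS1 and -1.01 (SE 0.06, adjusted p = 2.3e-07) for SARS1.

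CARS1 and GARS1 completed the 5 largest called differences, at -0.99 (SE 0.25, limma adjusted p = 0.011) and -0.96 (SE 0.06, adjusted p = 1.6e-07), while that of SARS2 was -1.03 and was not called (adjusted p = 0.48). In CAKI-1, CARS1 measured 289 and 349 with BCAA against 297 and 403 without, and the groups overlapped. GARS1 measured 16939 and 17193 against 18574 and 18689 and MARS1 9072 and 9918 against 10432 and 10633 in CAKI-1, without overlap but short of the threshold (limma adjusted p = 0.12 and 0.10). The call on the CARS1 difference was lost without the second 769-P library with BCAA (adjusted p = 0.054) or the first CAKI-1 library without BCAA. QARS1 differed by 0.51 (SE 0.07, adjusted p = 0.00016) and RARS1 by 0.20 (SE 0.06, adjusted p = 0.034), and the call on RARS1 was lost with median centering (adjusted p = 0.064), without any one 769-P library and without the first CAKI-1 library without BCAA. That on NARS1 (-0.24) was lost without the second 769-P library without BCAA (adjusted p = 0.056) and after quantile normalization, which gave -0.15 (adjusted p = 0.085).

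**Figure D4:**
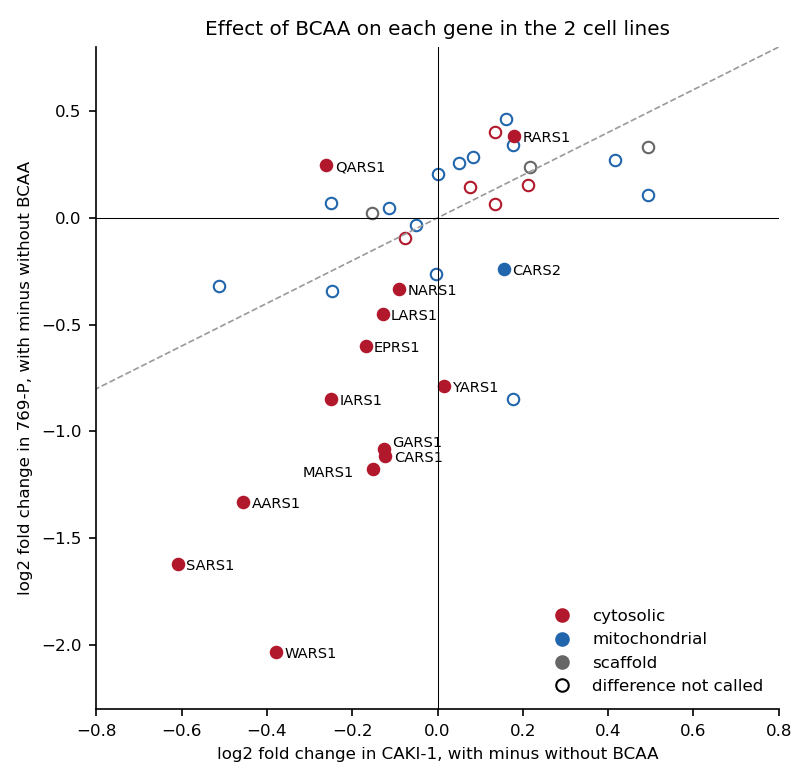
Log2 fold change, with minus without BCAA, of each of the 36 genes in 769-P (vertical) against CAKI-1 (horizontal), on axes of different range. The dashed line marks equal effects and filled, named points are the 14 genes whose effects were called different; 12 of them lie below the dashed line, whereas QARS1 and RARS1 lie above it.

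Within the cytosol, membership of the multi-synthetase complex did not mark a single direction. Of the 7 complex enzymes, EPRS1, IARS1, LARS1 and MARS1 were lower with BCAA in 769-P and KARS1, QARS1 and RARS1 were higher, with a median log2 fold change of -0.45. Of the 11 other cytosolic genes, 7 were lower and 2 were higher, with a median of -0.78. Over all genes, 18.2% were called lower and 20.3% higher, with a median of -0.02. In CAKI-1, 2 of the 7 complex enzymes were lower and 1 was higher. Of the 11 others, 3 were lower and 1 was higher, beside 9.05% and 10.8% of all genes. The CAKI-1 medians were -0.15 for the complex enzymes and -0.09 for the others.

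EEF1E1 was called higher in both lines and AIMP2 in 769-P. Of the exon bases, 28.9% of AIMP2, 18.7% of EEF1E1 and 11.6% of AIMP1 overlap other annotated genes. EEF1E1 (AIMP3) measured 670 and 786 with BCAA and 558 and 597 without in 769-P (0.33, SE 0.10, limma adjusted p = 0.020), and 399 and 375 against 278 and 270 in CAKI-1 (0.49, SE 0.12, adjusted p = 0.013). AIMP2 measured 1742 and 1579 against 1418 and 1390 in 769-P (0.24, SE 0.07, adjusted p = 0.015) and 912 and 1031 against 889 and 784 in CAKI-1 (0.22, 95% interval 0.0034 to 0.43, not called). AIMP1 measured 4876 and 4826 against 4735 and 4827 in 769-P and 2922 and 2824 against 3201 and 3189 in CAKI-1, and was not called in either line, although in CAKI-1 it was called lower with the spread taken from all 8 libraries (-0.15, limma adjusted p = 0.039). The 769-P calls on AIMP2 and EEF1E1 were lost after quantile normalization (adjusted p = 0.088 and 0.079), and that on EEF1E1 also without the filter on low values. Both were lost without any one 769-P library, with log2 fold changes from 0.17 to 0.31 for AIMP2 and from 0.21 (without the second library with BCAA, adjusted p = 0.22) to 0.45 for EEF1E1.

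By catalytic fold, the class I cytosolic enzymes had a median log2 fold change of -0.82 in 769-P, with 6 of 8 called lower and 2 called higher. The class II enzymes had a median of -0.10, with 4 of 9 lower, 3 higher and 2 not called, beside 18.2% of all genes called lower and 20.3% called higher. In CAKI-1 the medians were -0.14 and -0.08. EPRS1, which carries a domain of each class, was counted in neither.

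Per kilobase of exon, cytosolic enzymes were the more abundant class. In 769-P with BCAA the median level was 2328 normalized units per kb over the 18 cytosolic genes and 359 over the 15 mitochondrial genes, and in CAKI-1 it was 2172 and 222. In 769-P with BCAA, NARS1 stood highest at 6500 ± 104 (SD, n = 2), above EPRS1 at 5059 ± 102 and IARS2 at 4828 ± 55.8, the one mitochondrial enzyme among the leading genes.

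Without BCAA the order in 769-P was led by NARS1 at 8180 ± 34.8, GARS1 at 8074 ± 37.8, AARS1 at 7854 ± 58.0, SARS1 at 7734 ± 128 and EPRS1 at 7657 ± 16.7 units per kb (SD, n = 2). The 2 libraries of SARS1 overlapped those of AARS1 and, at the lower end, those of EPRS1, so the place of SARS1 was not resolved. Both libraries of AARS1 lay above both of EPRS1. In CAKI-1, EPRS1 stood highest in both conditions, at 5236 ± 191 with and 5883 ± 46.4 without BCAA. CARS1 and SARS2 were the lowest in each line and condition.

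The promoter core and the BCAA effect are set side by side here, and a link between them was not tested. Over all 27305 genes with a window, 4.46% held the core. In 769-P, 6 of the 9 cytosolic genes called lower that had a window held TGATGNAA (AARS1, CARS1, GARS1, IARS1, MARS1 and NARS1), as did 0 of the 5 called higher and TARS1 of the 2 not called. EPRS1, SARS1 and WARS1 were lower without these letters in their windows. In CAKI-1, 2 of the 5 cytosolic genes called lower held the core, AARS1 and IARS1, and 5 of the 9 not called with a window held it. None of the mitochondrial genes called in 769-P that had a window held it. With a share of 4.46% over all genes, absence from groups this small sets them apart from no other genes.

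Of 30 genes of the amino acid response, 25 were lower with BCAA in 769-P, 4 were higher and 1 was not called, beside 18.2% and 20.3% of all genes. In CAKI-1, 12 were lower, 6 were higher and 12 were not called, beside 9.05% and 10.8%. The effect was called further down in 769-P than in CAKI-1 for 24 of the 30 genes, beside 10.1% of all genes. ATF4, whose protein binds the response element, measured 15887 and 16581 with BCAA against 32276 and 31461 without in 769-P (-0.97, SE 0.04, limma adjusted p = 3.9e-09), and 16462 and 17194 against 22678 and 22594 in CAKI-1 (-0.43, SE 0.05, adjusted p = 0.00025). ASNS, asparagine synthetase and a widely used ATF4 target, had log2 fold changes of -2.26 and -0.40 (limma adjusted p = 2.3e-11 and 0.00067), and its effect differed between lines by -1.86 (SE 0.07, adjusted p = 1.4e-09).

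XPOT, which exports tRNA from the nucleus, measured 12700 and 11780 with BCAA against 23955 and 24453 without in 769-P (-0.98, SE 0.05, limma adjusted p = 8.6e-09) but 15331 and 14954 against 15437 and 15397 in CAKI-1 (-0.03, 95% interval -0.14 to 0.09, not called). The difference between lines was -0.96 (SE 0.07, adjusted p = 4.8e-07). EIF2AK4 was higher with BCAA by 0.21 in 769-P (adjusted p = 0.0058) and was not called in CAKI-1. Of the 16 tested genes of tRNA handling and elongation, 4 were lower and 5 were higher in 769-P, and of the 15 tested in CAKI-1, 3 were lower and none was higher. The shares over all genes were 18.2% lower and 20.3% higher in 769-P and 9.05% and 10.8% in CAKI-1.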

How the data were processed

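RNA-seq of 8 libraries (2 cell lines, with or without BCAA, 2 libraries each) was analysed from a table per line. The authors deposited a signal per gene, reads counted per gene and divided by a size factor per library; the submitters' notes name Trim Galore, TopHat2 2.1.0, SAMtools 1.3.1, HTSeq 0.6.0, DESeq and DESeq2 and build hg38, and the annotation is not given in the sources used here. Reads were recovered by dividing each value by the smallest positive value of its library, taken as a single read. Every quotient (100%) was a whole number within 0.01. Identifiers were matched to symbols (24871 of 25431 in 769-P, 24190 listed and 23727 matched in CAKI-1) and to GENCODE 29 exons.

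Genes whose mean value reached 1 were tested on log2(value + 1) with limma 3.58.1 in R 4.3.3 (lmFit, eBayes with trend), per line and as a line by BCAA interaction, with Benjamini-Hochberg adjustment over all genes. The fits were tested on simulated data. Whole reads were also tested by edgeR 4.0.16 and by DESeq2 1.42.0. Further alternatives were other pseudocounts, filters, scalings and thresholds, a replicate block, each library left out and, added after the data were seen, reads thinned to 30979773 per library and removal of genes with over 10% shared exon bases.

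The genes and lists were chosen with earlier results of these data known, so lists carry counts and medians and no test. Values per library are given for the leucine and isoleucine enzymes, the 5 largest called rises and falls per line, the 5 largest called differences between lines, genes called in opposite directions and the scaffold genes. Of other genes, ATF4, ASNS, XPOT and EIF2AK4 are named with values. Intervals are 95% intervals from limma. No column of sample values was left unused.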

Additional observations from a re-analysis of the deposited data

Results flagged for a closer look

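The effect of BCAA differed between 769-P and CAKI-1 for 14 genes by the limma interaction term at an adjusted p below 0.05, given as the log2 fold change in 769-P minus that in CAKI-1. It was further down in 769-P for WARS1 (-1.65), MARS1 (-1.02), SARS1 (-1.01), CARS1 (-0.99), GARS1 (-0.96), AARS1 (-0.87), YARS1 (-0.80), IARS1 (-0.60), EPRS1 (-0.43), CARS2 (-0.39), LARS1 (-0.32) and NARS1 (-0.24). It was further up in 769-P for QARS1 (0.51) and RARS1 (0.20). YARS1 had log2 fold changes of -0.78 in 769-P and 0.01 in CAKI-1, and CARS2 of -0.24 and 0.16. The tables of the lines were normalized separately, and each effect is a contrast within a table.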

How the results depend on the processing

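No alternative turned the direction of a called gene. In 769-P the number of cytosolic genes called lower was 11, was 12 with median centering (TARS1 added) and 9 with a minimum of 1.5-fold or without genes that share over 10% of their exon bases. The number called higher went from 5 to 3 with median centering, quantile normalization or an adjusted p below 0.01, and to 0 with the 1.5-fold minimum, which also left 0 mitochondrial genes lower and 0 higher. The cytosolic median of -0.52 became -0.50 with edgeR, -0.57 with median centering, -0.48 with quantile normalization and -0.39 without the genes that share exon bases. The mitochondrial median of 0.07 became 0.025 with median centering, 0.026 with quantile normalization and 0.11 without those genes. The gap between the medians, -0.60, became -0.51 with quantile normalization.

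In CAKI-1 the mitochondrial median of 0.05 became -0.0057 with edgeR, which reversed its sign, 0.0061 with DESeq2, 0.010 with quantile normalization and 0.0030 after thinning, and the gap of -0.18 became -0.13 under each of these (-0.130, -0.133, -0.132 and -0.130). The cytosolic genes called higher went from 2 to 1 with edgeR, median centering, no filter or the replicate block, and to 0 with quantile normalization, thinning, an adjusted p below 0.01 or the 1.5-fold minimum. The cytosolic genes called lower went from 5 to 9 with the spread taken from all 8 libraries (EPRS1, GARS1, LARS1 and MARS1 added, and AIMP1 among the scaffold genes), to 6 with edgeR, DESeq2, a minimum mean value of 10 or median centering (EPRS1 added) and to 1 with the 1.5-fold minimum, which left 0 mitochondrial genes in each direction. Quantile normalization left 1 mitochondrial gene higher. For the difference between lines, the cytosolic genes further up in 769-P went from 2 to 1 with median centering, the replicate block or an adjusted p below 0.01, and the mitochondrial genes further down from 1 to 2 with quantile normalization or thinning (MARS2 added). The cause of these shifts was not tested.

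With a library left out, the ranges in 769-P were 8 to 10 cytosolic genes lower, 0 to 1 higher, 0 to 0 mitochondrial genes in each direction, -0.55 to -0.50 for the cytosolic median, 0.062 to 0.11 for the mitochondrial median and -0.63 to -0.60 for the gap. In CAKI-1 no gene was called in any class (0 to 0), and the ranges were -0.12 to -0.090, 0.041 to 0.10 and -0.19 to -0.15. For the difference they were 10 to 11 cytosolic genes further down and 1 to 3 further up, and 1 to 2 and 0 to 1 mitochondrial genes. These fits leave a lone library in a group, which is assumed to vary like the others.

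Libraries with the same number did not deviate together (correlation -0.088 in 769-P and 0.061 in CAKI-1), so the numbers were not taken as pairs. The fit with a replicate block kept 11 cytosolic genes lower in 769-P and 5 in CAKI-1. It added YARS2 in 769-P (adjusted p = 0.024) and lost RARS1 in CAKI-1 (0.071) and for the difference between lines (0.081). The levels of SARS2 rest on few reads, 4 to 23 per library. CARS1 had 114 to 190 reads per library in 769-P and 297 to 419 in CAKI-1, over 10037 exon bases.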
